A study of Mus musculus with 12 samples.

Results

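Oxidative phosphorylation genes took 236 of the 84243 peaks in a list of accessible chromatin from mouse blood cells, under 85 of its 19040 gene names. They were chosen by symbol alone, as every row whose gene name begins with Nduf, Uqcr, Cox4 to Cox8 or Atp5, or is Sdha, Sdhb, Sdhc or Sdhd. ATAC-seq, in which a transposase cuts open DNA, was performed on 12 samples, 2 replicates of each of 6 cell types sorted by FACS from wild-type C57BL/6 mice aged 8 to 12 weeks. The cells were hematopoietic stem cells (HSCs), megakaryocyte progenitors (MkPs), erythroid progenitors (EPs), granulocyte/macrophages (GMs), B cells and T cells, from bone marrow or thymus, and no group was treated or carried a modified gene. The authors merged the peaks of all cell types and filtered them into 1 master peak-list. In it every peak is 499 bp long and is named after the gene that starts closest to it, at its transcription start site (TSS). This table gives neither the cell type nor the reads behind a peak. Depth is therefore unknown, no value has an error between replicates, and the 6 cell types could not be compared.

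Oxidative phosphorylation takes place in the inner mitochondrial membrane. NADH dehydrogenase (complex I, the Nduf genes) and succinate dehydrogenase (complex II, the Sdh genes) pass electrons through the cytochrome bc1 complex (complex III, the Uqcr genes) to cytochrome c oxidase (complex IV, the Cox genes), and ATP synthase (complex V, the Atp5 genes) uses the proton gradient that complexes I, III and IV build. Most subunits are encoded in the nucleus, and the factors NRF1, GABP, YY1 and ERRα are known to bind the promoters of many of them. HSCs are known to rely less on this pathway than the progenitors they give rise to.

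A promoter peak was a peak centred within 500 bp of a TSS, and all others were non-promoter peaks. The sequences of 4 promoters are shown first because, among the promoter peaks of the same complex whose sequence was open to printing, they hold the most kinds of the searched motifs, or hold as many as another and are centred nearer to the TSS. In complex I the peak of Ndufa2 holds 4 kinds, 1 more than that of Ndufaf4, and is not shown. Each is the mm10 sequence of the RefSeq assembly GRCm38.p6 from at most 220 bases upstream of the TSS to its first 30 transcribed bases, 5′ to 3′ on the strand of the gene. Capitals mark matches on either strand to the consensus of NRF1 (GCGCATGCG), the ETS factor GABPA (CCGGAAG), YY1 (AAGATGGCG), ERRα (TCAAGGTCA), SP/KLF (GGGCGG), NF-Y (CCAAT), CREB/ATF (TGACGTCA) or the E-box (CACGTG).
Ndufaf4, complex I, chr4:24897863-24898112, plus strand: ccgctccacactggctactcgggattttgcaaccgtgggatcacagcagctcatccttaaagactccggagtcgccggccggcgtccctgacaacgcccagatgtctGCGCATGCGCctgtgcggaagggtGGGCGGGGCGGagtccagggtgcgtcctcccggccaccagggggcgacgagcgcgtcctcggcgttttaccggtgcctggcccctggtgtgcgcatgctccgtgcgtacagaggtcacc
Sdhb, complex II, chr4:140961084-140961300, plus strand: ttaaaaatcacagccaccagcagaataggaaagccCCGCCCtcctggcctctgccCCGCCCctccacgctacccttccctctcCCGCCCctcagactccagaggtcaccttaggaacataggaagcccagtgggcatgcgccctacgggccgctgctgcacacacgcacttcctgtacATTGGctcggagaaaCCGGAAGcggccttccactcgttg
Cox6a1, complex IV, chr5:115348929-115349178, minus strand: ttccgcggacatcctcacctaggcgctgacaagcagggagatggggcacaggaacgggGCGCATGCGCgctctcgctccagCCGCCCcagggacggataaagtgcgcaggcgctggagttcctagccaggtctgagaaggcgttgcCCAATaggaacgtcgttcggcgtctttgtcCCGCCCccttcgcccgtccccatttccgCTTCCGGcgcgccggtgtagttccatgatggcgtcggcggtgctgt
Atp5g3, complex V, chr2:73911297-73911546, minus strand: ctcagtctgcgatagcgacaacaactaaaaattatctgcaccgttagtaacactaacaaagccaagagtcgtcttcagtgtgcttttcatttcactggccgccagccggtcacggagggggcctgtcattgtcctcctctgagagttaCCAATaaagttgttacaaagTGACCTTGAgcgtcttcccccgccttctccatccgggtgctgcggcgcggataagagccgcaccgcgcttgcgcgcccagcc

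Ndufaf4, an assembly factor of complex I, has an NRF1 match beside 2 merged SP/KLF matches. Sdhb, the iron-sulfur subunit of complex II, has 3 SP/KLF matches farther upstream and an NF-Y and a GABPA match near the TSS. Cox6a1, an accessory subunit of complex IV, has NRF1, SP/KLF, NF-Y and GABPA matches in 1 promoter. Atp5g3, which encodes the c subunit of the ATP synthase ring, has an NF-Y match and an ERRα match. In complex III the same rule named Uqcrc1, a core protein of the complex, whose NRF1, YY1 and SP/KLF matches all lie downstream of the TSS. Its NRF1 and YY1 matches appear with the single sites below the next sequences, and its SP/KLF match, at 276 bp, is not shown.

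Promoters shared with a neighbour are shown next, because the list gives such a peak to only 1 of the genes. The sequence runs between the TSS of each gene and that of its partner on the other strand, and the capitals mark the same motifs.
Sdhd to Timm8b, chr9:50603849-50603901, minus strand: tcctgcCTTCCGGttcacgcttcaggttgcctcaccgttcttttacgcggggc
Atp5j to Gabpa, chr16:84835022-84835124, minus strand: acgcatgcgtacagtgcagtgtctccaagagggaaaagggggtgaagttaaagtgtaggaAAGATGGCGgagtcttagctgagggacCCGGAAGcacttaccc

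Sdhd, which anchors complex II in the membrane, and Timm8b, a chaperone of mitochondrial protein import, have TSSs 52 bp apart. The single peak over both is listed under Timm8b and is centred at -38 bp from the TSS of Sdhd, where negative values are upstream. Atp5j, a stalk subunit of ATP synthase, and Gabpa, the DNA-binding subunit of GABP, have TSSs 102 bp apart. Their peak is listed under Atp5j and is centred at -97 bp from the TSS of Gabpa. The interval holds a YY1 match and a GABPA match, so that a consensus for the factor GABPA stands in the promoter that its gene shares with a subunit of ATP synthase.

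Peaks of oxidative phosphorylation genes lay at promoters more often than peaks of the whole list. Of the 236 peaks, 75 were promoter peaks (31.8%, 95% Wilson interval 26.2 to 38%), against 15.6% of all master peaks. Both shares describe the list after filtering. The authors counted more promoter peaks in each single cell type than in this list, at a higher share of the peaks. A gene without a promoter peak here may therefore have had one before filtering. Here and below, the intervals cover counting error only. The promoter share was 35.1% in complex I (39 of 111 peaks), 42.9% in complex II (3 of 7) and 37.5% in complex III (6 of 16). It was lower in complex IV (26.4%, 14 of 53) and complex V (26.5%, 13 of 49). The gene sets are unlike, since by symbol complex I also holds assembly factors, Ndufa4 and Ndufa4l2. Assembly factors of the other complexes fall outside the rule. With structural subunits only, and Ndufa4 counted in complex IV, the share was 42.1% in complex I (32 of 76). It was then 25.5% in complex IV (13 of 51) and 25.5% in complex V (12 of 47). The intervals of the 5 complexes overlapped, from 26.9 to 44.4% in complex I, 15.8 to 75.0% in complex II, 18.5 to 61.4% in complex III, 16.4 to 39.6% in complex IV and 16.2 to 40.3% in complex V, so no order among them can be read from these counts.

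**Figure D1:**
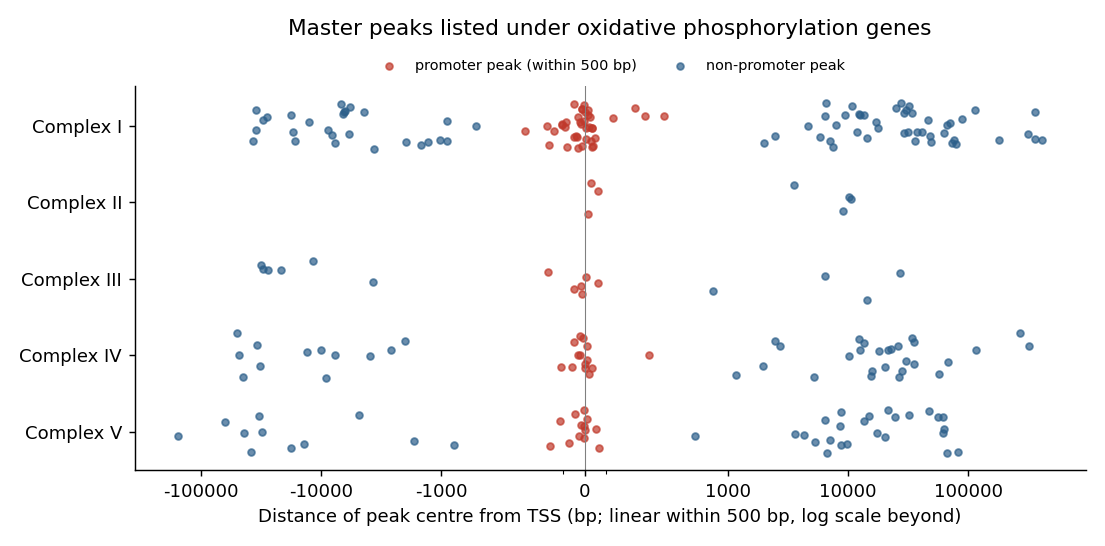
Signed distance of each of the 236 peaks from the TSS of the gene it is listed under, in bp, by complex, with 1 point per peak and vertical jitter only for visibility. Promoter peaks (red, 75) gather at the TSS in all 5 complexes, and the non-promoter peaks (blue, 161) lie mostly beyond 1000 bp on both sides.

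The higher share came with fewer peaks elsewhere. Members had 1.89 non-promoter peaks per gene name on average (median 1), against 3.73 (median 2) for all gene names, and 28 of 85 (32.9%) had none, against 13.8% of all names. The mean was 1.64 in complex I, 1 in complex II, 1.25 in complex III, 2.6 in complex IV and 2.57 in complex V. The means of complexes IV and V rest largely on a few genes. Atp5o had 14 of the 36 non-promoter peaks of complex V, and Cox4i2, Cox7a2l and Cox4i1 had 9, 8 and 7 of the 39 of complex IV. No member had more than 1 promoter peak, but the list holds only non-overlapping peaks of 499 bp. In the whole list there are 13171 promoter peaks, and 11518 protein-coding genes have one under their own name. The highest number per name was counted for members only. The promoter peaks of members were also centred close to the TSS, at a median distance of 33 bp against 67 bp for all promoter peaks, and 49 of 75 (65.3%) lay within 50 bp, against 41.5% of all. Their median GC content was 60.1% against 63.3% and their ratio of observed to expected CpG was 0.779 against 0.778. The member promoter peaks centred farthest from their TSS were those of Ndufb5 (371 bp), Cox6c (300 bp), Ndufc2 (284 bp), Ndufs7 (-278 bp) and Ndufs4 (237 bp), and the peak nearest to the TSS of Ndufb5 was another one, at -171 bp, listed under its neighbour Mrpl47.

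The gene names of the list do not cover all members, so genes were also counted from RefSeq, in which 96 protein-coding genes fit the rule. One further name in the list, Atp5s, is called Dmac2l in RefSeq and was counted among the peaks only. A promoter peak under the gene's own name or gene ID was found for 75 of the 96 genes (78.1%, 68.9 to 85.2%), against 52.9% of all 21774 protein-coding genes. These are not quite the genes of the 75 promoter peaks above, since Atp5mpl, listed as 2010107E04Rik, is among the genes and Atp5s is not. When a peak under any name counted, provided that it was centred within 500 bp of a curated TSS of the gene, 89 of 96 had one (92.7%, 85.7 to 96.4%), against 58.3% of all. Genes without a curated TSS could not pass this count, and 95 of the 96 members and 21000 of the 21774 genes have one. By this count no gene of complexes II (4 genes), III (8) and V (17) lacked a promoter peak, complex I had 46 of 49 and complex IV 14 of 18.

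**Figure D2:**
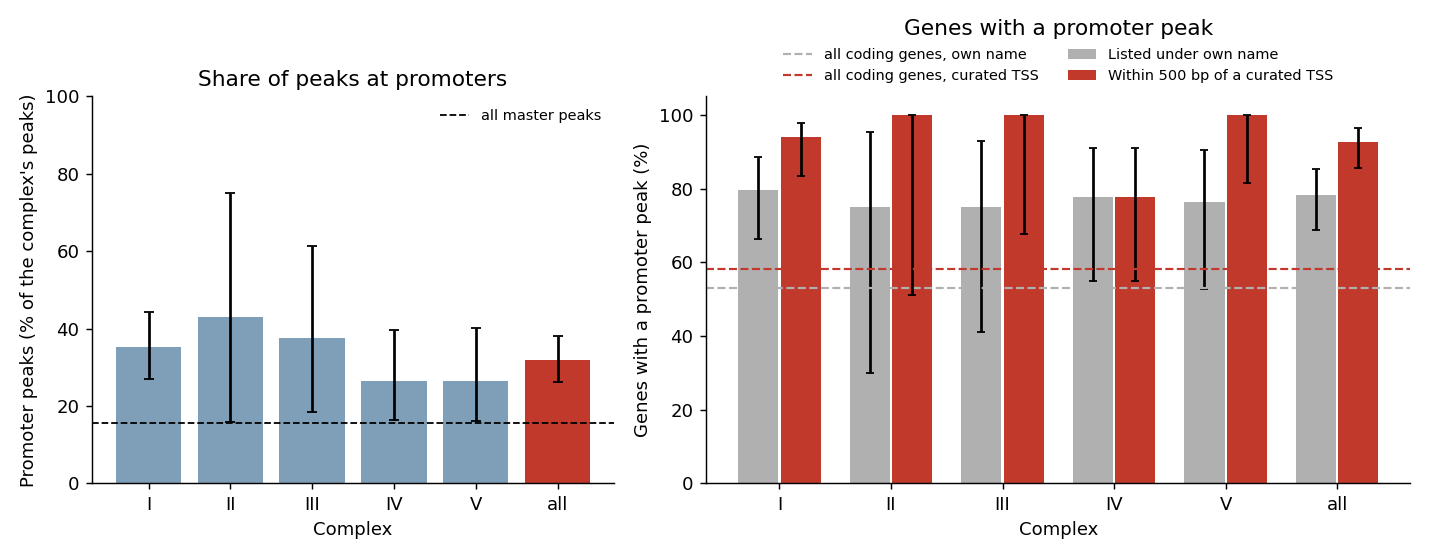
Left, promoter peaks as a percentage of the peaks of each complex, with the share in all master peaks dashed (15.6%). Right, percentage of genes with a promoter peak under their own name (grey) or within 500 bp of a curated TSS (red), with the same shares of all protein-coding genes dashed (52.9% and 58.3%). Error bars are 95% Wilson intervals. Complex IV is alone in having the same height in both counts (77.8%).

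The subunits at the centre of each complex had open promoters in the list. Of 21 such genes, 18 had a promoter peak under their own name (85.7%) and 21 had one by curated TSS (84.5 to 100%). Among all 96 members the shares were 78.1% and 92.7%, and among all protein-coding genes 52.9% and 58.3%. By curated TSS the share of all members lay inside the interval of the core genes. No difference between core genes and other members can therefore be read from this count. In complex I the core subunits hold flavin or iron-sulfur clusters or form the quinone site. Their peaks included those centred at -4 bp (Ndufv1), -92 bp (Ndufv2), 17 bp (Ndufs1), 20 bp (Ndufs3), -278 bp (Ndufs7) and -165 bp (Ndufs8). In complex II the flavoprotein Sdha had its peak at 29 bp, the iron-sulfur protein Sdhb at 62 bp and the membrane anchor Sdhc at 17 bp. In complex III the distance was 62 bp for Uqcrc1, -10 bp for Uqcrc2 and -49 bp for the Rieske protein Uqcrfs1. The catalytic subunits of complex IV are encoded in the mitochondrial genome, and of the nuclear subunits that pack around them Cox4i1 had its peak at 37 bp, Cox5a at 9 bp and Cox5b at 21 bp. In complex V the catalytic β subunit gene Atp5b had its peak at -115 bp. The other 3 core genes were Atp5a1 and Atp5c1, for the α and γ subunits of the ATP synthase head, and Sdhd, and each had a promoter peak listed under a neighbour.

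In all, 14 genes had a promoter peak that carries the name of another gene. In complex I they were Ndufa1 (listed under Rnf113a1, 58 bp from the TSS of the member), Ndufa4 (Phf14, -294 bp), Ndufa11 (Vmac, -484 bp), Ndufa13 (Tssk6, 291 bp), Ndufb1 (Cpsf2, -239 bp), Ndufb3 (Fam126b, -93 bp) and the assembly factor Ndufaf8 (Tepsin, -134 bp). Ndufa4 is counted with complex I by its symbol, although its protein is known as a subunit of complex IV. In complexes II and III they were Sdhd, Uqcr10 (Zmat5, -293 bp) and Uqcrh (Lrrc41, -342 bp). In complex V they were Atp5a1 (Haus1, 200 bp), Atp5c1 (Kin, -74 bp), Atp5md (Pdcd11, -95 bp) and Atp5pb (Wdr77, 5 bp). For 13 of the 14, all but Ndufa1, the name was that of a coding gene transcribed away from the member on the other strand.

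Such divergent neighbours, with a coding TSS upstream within 1000 bp on the other strand, were found for 30 of the 95 members that have a curated TSS (31.6%, 23.1 to 41.5%), against 8.31% of 21000 protein-coding genes. They were found for 17 of 48 genes in complex I, 3 of 4 in complex II, 3 of 8 in complex III and 6 of 17 in complex V, but for 1 of 18 in complex IV (5.56%, 0.988 to 25.8%). Of the 30 divergent members, 17 had a promoter peak under their own name and 30 had one by curated TSS. Among all 1746 divergent coding genes the same shares were 52.5% and 93.6%. Members without a divergent neighbour had a promoter peak in 59 of 65 cases (90.8%) by curated TSS, against 57.4% of the other coding genes.

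No peak was centred within 500 bp of a curated TSS for 7 members. Cox6a2 and Cox8b are the heart and skeletal muscle forms of complex IV subunits, and their nearest peaks were centred at -1996 bp and -2973 bp. Cox7b2 and Cox8c are testis forms, with nearest peaks at -109579 bp and -13361 bp. Ndufa4l2, a paralogue of Ndufa4 known for its induction by hypoxia, had its nearest peak at -1293 bp. Ndufb4c, a near copy of Ndufb4, had its nearest peak at -2638 bp, and Ndufb4b, another copy, has no curated TSS and could not be placed. Reads that map to several places were left out by the authors, which can lower the signal at near-identical copies, and this was not tested.

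The paralogues of complex IV were compared by whether the list holds a promoter peak for them. The widely expressed forms Cox4i1, Cox6a1, Cox6b1, Cox7a2, Cox7b and Cox8a had promoter peaks at 37, 0, -22, -6, 1 and -108 bp. Of the 7 forms known from muscle, testis or lung, 3 had a promoter peak (42.9%, 15.8 to 75.0%). That interval contains the shares of all protein-coding genes, 52.9% under their own name and 58.3% by curated TSS. The 3 were Cox4i2, the lung form (-57 bp), Cox6b2, a testis form (-20 bp), and Cox7a1, a muscle form (-51 bp). Their ratios of observed to expected CpG were 0.476, 0.413 and 0.322, the 3 lowest of the 75 member promoter peaks, where the median was 0.779. Which of the 6 cell types carried these peaks is not given in the list.

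**Figure D3:**
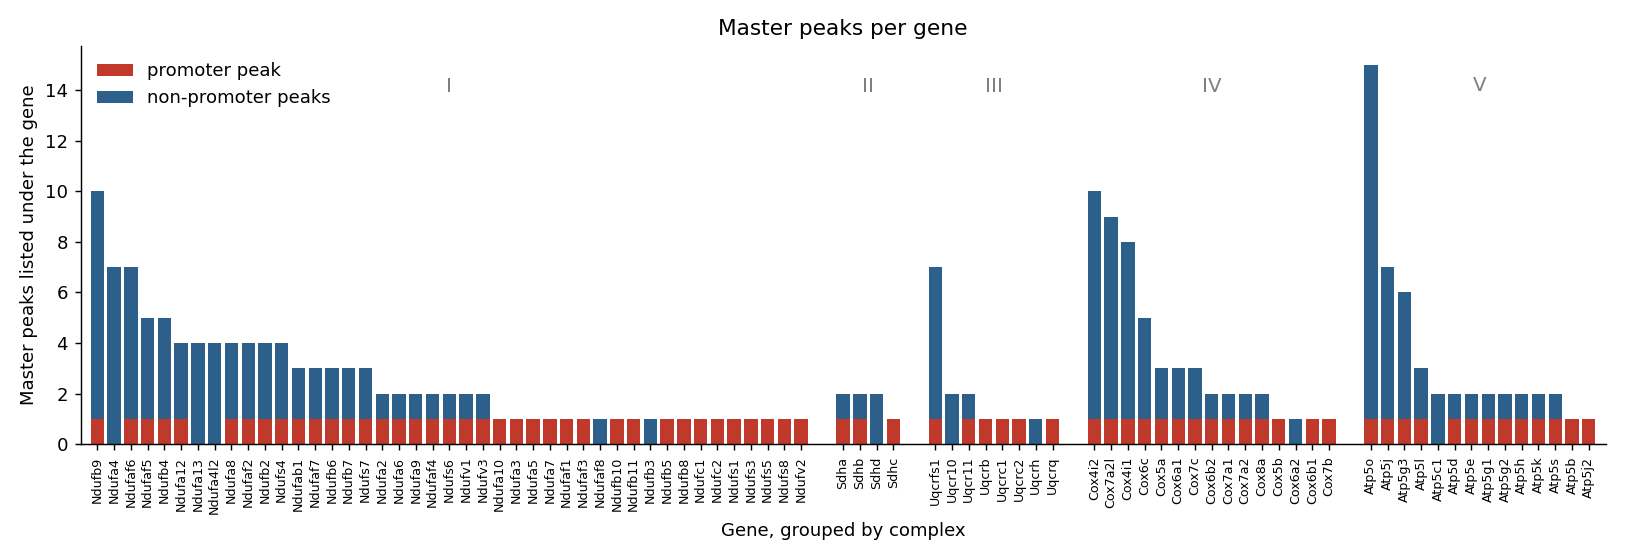
Number of master peaks listed under each of 84 of the 85 gene names, grouped by complex and ordered by number, with promoter peaks in red and non-promoter peaks in blue. Atp5o has the most (15). No gene shown has more than 1 promoter peak, in a list that holds only non-overlapping peaks.

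The known regulators of these genes have short consensus sequences, and 8 were searched on both strands of each promoter peak. YY1 matched 14 of 75 member promoter peaks (18.7%, 11.5 to 28.9%), against 4.33% of all 13171 promoter peaks. NRF1 matched 10 (13.3%, 7.41 to 22.8%), against 3.63%, and ERRα, a nuclear receptor, matched 3 (4.0%, 1.37 to 11.1%, in Ndufa2, Cox6c and Atp5g3), against 0.38%. For these 3 motifs the share of all promoter peaks lay under the lower limit of the members. The ERRα share rests on 3 sites, at 220 bp from the TSS in Ndufa2, 435 bp in Cox6c and -48 bp in Atp5g3. In the central 200 bp of the peaks ERRα matched 1 of 75 (1.33%, 0.236 to 7.17%), against 0.144%. GABPA matched 22 (29.3%, 20.2 to 40.4%), against 21.3%, which lay inside the members' interval. In the central 200 bp of the peaks the share of all promoter peaks lay just under the members' lower limit, with GABPA in 21.3% of members (13.58 to 31.9%) against 13.57%, and from 250 bp upstream to 50 bp downstream of the TSS it was 23.2% (15.8 to 32.6%) against 12.2%. For the other 4 motifs the share of the list also lay inside the members' interval, with SP/KLF in 66.7% against 75.7%, NF-Y in 38.7% against 44.3%, the E-box in 12.0% against 13.8% and CREB/ATF in 5.33% against 3.63%. In the central 200 bp, SP/KLF was less frequent in members, in 45.3% (34.6 to 56.6%) against 58.6%. At least 1 of the 8 was present in all but 5 of the 75 peaks, and the median number of kinds was 2 in members and in all promoter peaks. The NRF1 consensus is nearly its own reverse complement, so it can match both strands 1 base apart, the CREB/ATF and E-box strings are palindromes, and a match is only a description of the letters.

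**Figure D4:**
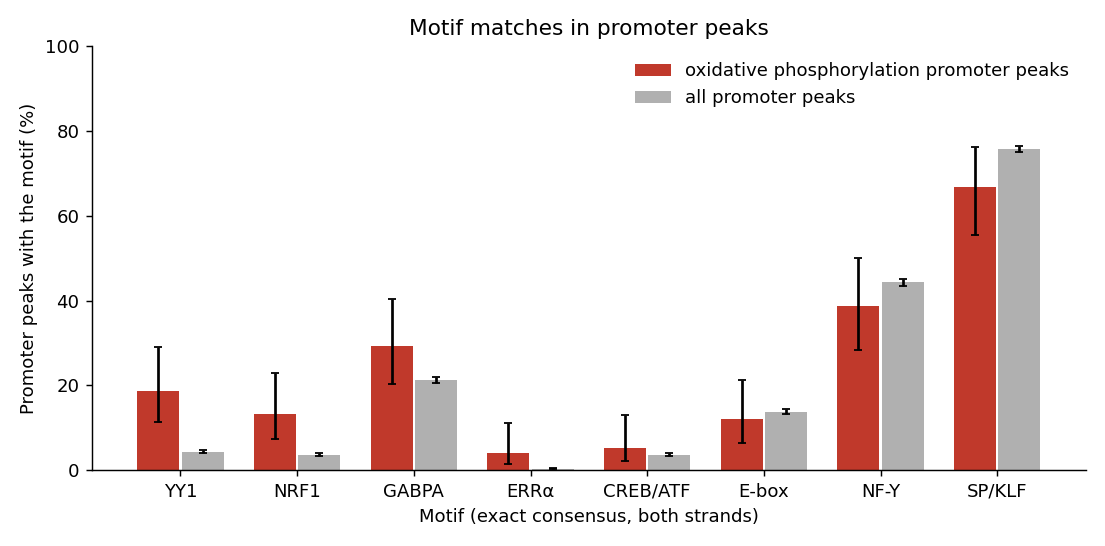
Percentage of promoter peaks with an exact match to each consensus, on either strand, in the 75 peaks of oxidative phosphorylation genes (red) and in all 13171 promoter peaks (grey), with 95% Wilson intervals. The bars of members are higher for YY1 (18.7% against 4.33%), NRF1 (13.3% against 3.63%) and ERRα (4.0% against 0.38%), with intervals above the list, and lower for SP/KLF (66.7% against 75.7%) and NF-Y, with intervals that reach it.

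The YY1 matches are shown with their surroundings, because their place in the gene bears on how the share can be read. Each line holds 30 bases in the direction of the gene, with the match in capitals, and 12 of the 14 sites are shown.
Ndufa6, complex I, chr15:82354213-82354242, minus strand: gcttcctcggcAAGATGGCGgccgcggcca
Ndufa9, complex I, chr6:126849097-126849126, minus strand: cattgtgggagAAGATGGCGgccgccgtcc
Ndufc1, complex I, chr3:51408915-51408944, minus strand: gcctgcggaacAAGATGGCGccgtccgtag
Ndufs4, complex I, chr13:114388041-114388070, minus strand: ttgcctacaggAAGATGGCGgcggtctcaa
Ndufs6, complex I, chr13:73328431-73328460, minus strand: gggtcaccggcAAGATGGCGgcggtgctga
Ndufs8, complex I, chr19:3913051-3913080, minus strand: ttgtacgctgtCGCCATCTTtgcagtattc
Uqcrc1, complex III, chr9:108936706-108936735, plus strand: cggaagttagAAGATGGCGgcgtccgcagt
Atp5e, complex V, chr2:174463866-174463895, minus strand: ggccaccctccAAGATGGCGtcgccgtgga
Atp5g2, complex V, chr15:102670810-102670839, minus strand: cgcgggcctggCGCCATCTTgggtgtctca
Atp5h, complex V, chr11:115420155-115420184, minus strand: agctgcagctcCGCCATCTTgggccgccgc
Atp5j, complex V, chr16:84835046-84835075, minus strand: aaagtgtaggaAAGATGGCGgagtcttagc
Atp5j2, complex V, chr5:145191500-145191529, minus strand: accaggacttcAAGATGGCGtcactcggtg

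In 11 of the 14 matches the consensus read in the direction of the gene, and the median position was 36 bp downstream of the TSS. The letters ATG in the middle of the consensus were an annotated start codon in 10 of the 14 peaks. These included the start codon of the member itself in Ndufa2, Ndufa6, Ndufa9, Ndufc1, Ndufs4, Ndufs6, Uqcrc1 and Atp5j2, and that of its divergent neighbour Kctd2 in Atp5h. Among all promoter peaks with a YY1 match, 47.0% had it at a start codon. Without the sites at start codons, a comparison added after the matches were seen, YY1 matched 4 member promoter peaks (5.33%, 2.09 to 12.9%), against 2.33% of all promoter peaks, which lay inside the members' interval. With only the sites at start codons, the shares were 13.3% and 2.03%.

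The matches in each complex rest on small counts, their differences were not tested, and no order can be read from them. YY1 matched 8 of 39 promoter peaks of complex I, 1 of 6 of complex III and 5 of 13 of complex V, and none of 14 in complex IV, where the upper limit of the interval was 21.5%, or of 3 in complex II. GABPA matched 7 of 39 in complex I, 1 of 3 in complex II, 3 of 6 in complex III, 5 of 14 in complex IV and 6 of 13 in complex V. NRF1 matched 3, 0, 2, 2 and 3 peaks of complexes I to V. Its sites are shown in the same way, since they are spread over 4 complexes.
Ndufa8, complex I, chr2:36049329-36049358, minus strand: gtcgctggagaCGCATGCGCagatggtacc
Ndufaf4, complex I, chr4:24897960-24897989, plus strand: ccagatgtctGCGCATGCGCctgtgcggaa
Ndufaf5, complex I, chr2:140170652-140170681, plus strand: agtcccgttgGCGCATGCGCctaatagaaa
Uqcr11, complex III, chr10:80406808-80406837, minus strand: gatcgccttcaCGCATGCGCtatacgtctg
Uqcrc1, complex III, chr9:108936668-108936697, plus strand: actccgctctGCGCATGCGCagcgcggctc
Cox6a1, complex IV, chr5:115349101-115349130, minus strand: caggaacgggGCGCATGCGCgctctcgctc
Cox6c, complex IV, chr15:35938170-35938199, minus strand: catcgactcttGCGCATGCGtgctgctgga
Atp5g2, complex V, chr15:102671070-102671099, minus strand: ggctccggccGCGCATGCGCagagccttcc
Atp5k, complex V, chr5:108434430-108434459, minus strand: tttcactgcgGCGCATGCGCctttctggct
Atp5l, complex V, chr9:44920965-44920994, minus strand: aaaaccaataaCGCATGCGCatttccccca

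The NRF1 sites lay on both sides of the TSS, from -237 bp in Atp5l to 62 bp in Cox6c. In 6 of the 10 genes, Ndufaf4, Ndufaf5, Uqcrc1, Cox6a1, Atp5g2 and Atp5k, the full palindrome is present and matches both strands. Of the GABPA sites, 23 of 29 lay within 100 bp of the TSS, with a median of -2 bp. So did 11 of 16 NRF1, 10 of 14 YY1, 35 of 56 NF-Y and 48 of 91 SP/KLF sites. For CREB/ATF, the E-box and ERRα it was 3 of 4, 4 of 10 and 1 of 3. Only 499 bp peaks centred within 500 bp of a TSS were searched, which limits how far a site can lie. Positions were not counted for all promoter peaks. Uqcrc1 and Atp5g2 held both an NRF1 and a YY1 match.

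**Figure D5:**
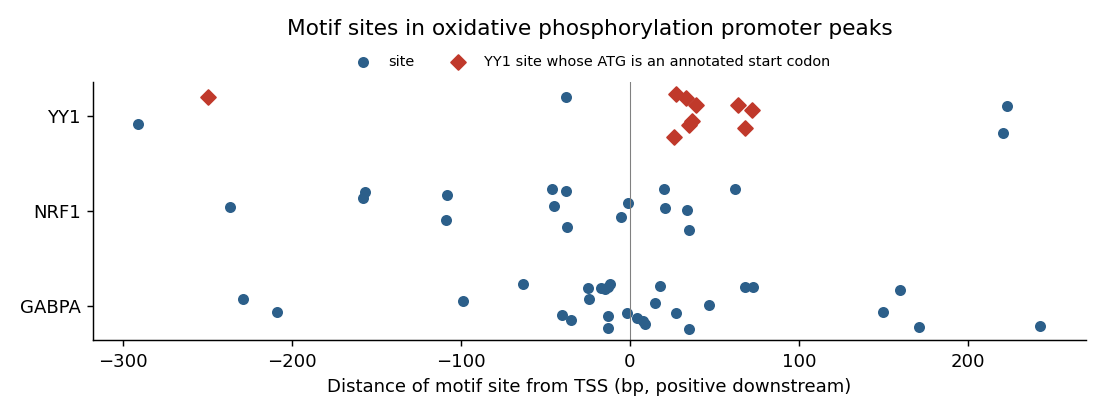
Position of each YY1 (14), NRF1 (16, palindromes counted on both strands) and GABPA (29) match relative to the TSS in member promoter peaks, in bp, with vertical jitter only for visibility. Red diamonds are YY1 matches whose ATG is an annotated start codon, most of them within 100 bp downstream of the TSS.

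The 161 non-promoter peaks are tied to these genes by distance alone. They were centred at a median of 17016 bp from the TSS, against 22261 bp for all non-promoter peaks, and 6.21% lay beyond 100 kb, against 13.0%. Only 32 (19.9%, 14.4 to 26.7%) were inside the body of the gene they are listed under, against 38.5% of all non-promoter peaks. Another 55 (34.2%, 27.3 to 41.8%) were inside another coding gene, against 15.3%, and 74 (46.0%) were outside coding genes, against 46.1%. The share inside another gene was 33.3% in complex I, 20% in complex III, 35.9% in complex IV and 41.7% in complex V, and none of the 4 non-promoter peaks of complex II was.

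The non-promoter peaks were unevenly spread over the genes. The 10 with the most peaks were Atp5o (15), Cox4i2 (10), Ndufb9 (10), Cox7a2l (9), Cox4i1 (8), Atp5j, Ndufa4, Ndufaf6 and Uqcrfs1 (7 each) and Atp5g3 (6), with 86 peaks in all, of which 77 were among the 161 non-promoter peaks. Of the peaks of Atp5o, which encodes a stalk subunit of ATP synthase, 9 lay in Itsn1, a scaffold of endocytosis, from 13659 to 82594 bp. All 9 non-promoter peaks of Ndufb9, an accessory subunit of complex I, lay in introns of Mtss1, a regulator of the actin cytoskeleton, from 12575 to 73050 bp. Of those of Cox4i2, 7 lay in Bcl2l1, which encodes the survival protein Bcl-xL, from 12477 to 35104 bp, and the other 2 were in Cox4i2 itself. Of those of Atp5j, 5 lay in Jam2, an adhesion molecule. Such peaks are nearer to the member's TSS than to that of the gene that contains them.

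The other genes with many peaks had most of them in the space between genes. All 7 non-promoter peaks of Cox4i1 lay between it and Irf8, a transcription factor of myeloid and B cells, from 10288 to 33881 bp. All 6 of the assembly factor Ndufaf6 lay upstream toward Trp53inp1, from -901 to -12562 bp. Uqcrfs1 had 5 of its 6 upstream toward the phosphatase gene Dusp22, from -3718 to -31719 bp. Cox7a2l, a factor that joins complexes III and IV, had 6 of 8 upstream toward Kcng3, from -13051 to -49708 bp, and 2 in Eml4. The non-promoter peaks farthest from a member were 4 of Ndufa4, at 412822, 359938, 356780 and 313374 bp, in the interval toward Nxph1, and 1 of Cox7c at 322504 bp. Whether any of these regions acts on the gene it is listed under was not tested.

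One region is shown for each of 3 of these genes, chosen after the peaks were seen as a non-promoter peak with several kinds of motif and no exon in the printed bases. Each line is the central 300 bases of the peak, in mm10. The regions of Ndufb9 and Cox4i2 are in introns of Mtss1 and Bcl2l1, and that of Atp5o is intergenic. Capitals mark matches on either strand to AGATAA for the GATA factors, AGGAAGT for PU.1 and related ETS factors, TGTGGTT for the RUNX factors, TGANTCA for AP-1, CAGCTG for the E2A type of E-box, TTGCGCAA for the CEBP factors, or CTCF.
Ndufb9, complex I, chr15:58980301-58980600, plus strand: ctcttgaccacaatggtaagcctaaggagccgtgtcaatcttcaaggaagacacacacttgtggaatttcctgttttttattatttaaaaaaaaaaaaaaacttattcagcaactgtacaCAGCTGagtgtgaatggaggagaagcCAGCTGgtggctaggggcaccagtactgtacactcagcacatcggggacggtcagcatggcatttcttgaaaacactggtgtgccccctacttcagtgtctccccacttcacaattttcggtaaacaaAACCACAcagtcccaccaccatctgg
Atp5o, complex V, chr16:91964611-91964910, plus strand: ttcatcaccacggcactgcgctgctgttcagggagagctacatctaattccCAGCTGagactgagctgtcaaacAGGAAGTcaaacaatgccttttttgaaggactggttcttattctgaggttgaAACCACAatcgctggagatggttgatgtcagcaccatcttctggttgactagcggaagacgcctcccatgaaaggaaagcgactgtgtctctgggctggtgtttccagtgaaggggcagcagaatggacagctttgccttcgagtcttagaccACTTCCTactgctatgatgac
Cox4i2, complex IV, chr2:152789128-152789427, plus strand: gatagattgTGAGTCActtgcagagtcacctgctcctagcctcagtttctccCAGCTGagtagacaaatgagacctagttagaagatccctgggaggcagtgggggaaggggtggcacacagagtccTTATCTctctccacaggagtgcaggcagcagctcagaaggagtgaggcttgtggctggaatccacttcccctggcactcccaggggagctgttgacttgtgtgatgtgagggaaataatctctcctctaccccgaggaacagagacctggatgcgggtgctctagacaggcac

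The region in Mtss1, 46640 bp from Ndufb9, has 2 E2A E-boxes and a RUNX match. The region of Atp5o, at -33130 bp, has an E2A E-box, a RUNX match and 2 PU.1/ETS matches. The region in Bcl2l1, 35104 bp from Cox4i2, has an AP-1, an E2A E-box and a GATA match.

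Motifs of blood transcription factors were about as frequent in the non-promoter peaks of members as in all 71072 non-promoter peaks. GATA, bound in erythroid and megakaryocyte cells, matched 23.6% of them (17.7 to 30.7%), against 26.9%. PU.1/ETS, bound in myeloid and B cells, matched 26.1% (19.9 to 33.4%), against 27%, and RUNX 23.0% (17.2 to 30.1%), against 18%. AP-1 matched 17.4% against 16.9% and the E2A E-box 32.3% against 30.4%. CTCF, which marks insulators, matched 6 peaks (3.73%, 1.72 to 7.89%), against 1.99%. CEBP matched none of 161, against 0.11%, a share at which no match is detectable in so few peaks. For each of these motifs the share of the list lay inside the members' interval with exact matches. With 1 mismatch allowed, CTCF matched 18.6% of member peaks (13.4 to 25.4%), against 12.8%.

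Genes of the pathway outside the rule were counted from a list of 42. By curated TSS all 42 had a promoter peak, against 58.3% of all protein-coding genes. Under their own name 31 of the 42 had one, against 52.9%. They comprise 9 regulators, 31 assembly factors and 2 electron carriers. The promoter peaks of the regulators were centred at -41 bp for Nrf1, -155 bp for Esrra, which encodes ERRα, -17 bp for the coactivator Ppargc1a and -92 bp for Tfam, a factor of mitochondrial transcription. Yy1 had the most peaks among the regulators, 12, with its promoter peak at -426 bp. Gabpa had no peak under its own name, since its promoter peak is the one listed under Atp5j. Cycs, which encodes cytochrome c, had its promoter peak 6 bp from the TSS under the name 5430402O13Rik, and Cyc1, cytochrome c1 of complex III, had its own at -30 bp.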

How the data were processed

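The 12 ATAC-seq samples were sorted cells of 6 types with 2 replicates each. The authors aligned reads to mm10 with the ENCODE ATAC-seq pipeline and left out multimapping reads. They combined the reproducible peaks of all cell types, filtered them to non-overlapping peaks of equal width and annotated them with HOMER 4.10.2. Positions, distances and gene names were used as deposited by the authors. The score that the authors deposited is 0 in all 84243 peaks and was not used. TSSs, gene bodies, start codons and sequence came from RefSeq GRCm38.p6, with curated transcripts only. Distances to the nearest curated TSS were within 2 bp of the deposited ones in 203 of 236 member peaks. No test was run, because the list holds no value per sample: shares have 95% Wilson intervals and stand beside the same share of the whole list.

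The members, gene lists and motifs were chosen with earlier results of these data known. Genes were named by rule: those without a promoter peak, the 10 with the most peaks, the 5 with the farthest promoter peak, the 5 farthest non-promoter peaks and the core subunits; paralogues of complex IV, genes with motif matches, divergent partners, host genes and pathway genes outside the rule were named beside them. Counting and motif search were tested on simulated data. Tools were Python 3.11.15, pandas 2.3.3, scipy 1.17.1 and pysam 0.24.0. Alternatives concerned the promoter limit, the genes counted, the source of the TSS and the motif window. One member gene is counted in the totals but is not reported here by name.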

Additional observations from a re-analysis of the deposited data

How the results depend on the processing

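Most shares kept their value within the interval when the processing was changed. With a promoter limit of 100 bp, the promoter share of complex I was 26.1% in place of 35.1% and 62.5% of member genes had a promoter peak in place of 78.1%. That share was 88.1% when only symbols present in the list counted, 92.7% by any peak at a curated TSS and, in a count added after the data were seen, 96.6% by curated TSS without the muscle, testis and lung forms. The counts of promoter and non-promoter peaks, the shares of complexes II to V, the peaks per gene and the share of divergent genes stayed within 1.5 times or inside the interval under the alternatives run.

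The motif shares depended more on the letters and window. With 1 mismatch, 15 of 15 left their interval, and with the central 200 bp 10 of 15 did. From 250 bp upstream to 50 bp downstream of the TSS 2 of 8 did, YY1 falling to 9.47% against 2.04% of all genes, and in peaks at curated TSSs none did. YY1 also left its interval without start codon sites (5.33%). The comparison with the list changed for GABPA in the central 200 bp and in the TSS window, and for SP/KLF in the central 200 bp, where the share of the list fell outside the members' interval, and likewise for CTCF with 1 mismatch. In peaks at curated TSSs, set against all 13171 promoter peaks, the share of the list also fell outside for GABPA and SP/KLF. There GABPA matched 31.5% of member peaks (22.8 to 41.7%), against 21.3%, and SP/KLF 65.2% (54.8 to 74.3%), against 75.7%. The comparison changed for YY1 without start codon sites, where the share of the list fell inside.

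No paired analysis was possible because the list pools all samples, and leaving out each replicate was not run for the same reason. Complexes II and III rest on 7 and 16 peaks.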
